A study of Cavia porcellus with 35 samples.

Results

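Molecular chaperones of the heat shock protein and DNAJ families were examined in RNA-seq data from the medial prefrontal cortex (mPFC) of juvenile guinea pigs (Cavia porcellus). The genes were taken by symbol, without regard to case: every symbol that begins with HSPA, HSPB, HSP90, HSPD, HSPE, HSPH, DNAJA, DNAJB or DNAJC. There were 58 such genes among the 12100 gene symbols listed in the 4 count tables of the series, with 57 of 11478 symbols listed for F1 females, 56 of 11362 for F2 females, 56 of 11651 for F3 females and 58 of 11720 for F1 males. They comprised 11 HSPA, 5 HSPB, 2 HSP90, 2 HSPD and HSPE, 1 HSPH, 4 DNAJA, 9 DNAJB and 23 DNAJC genes, and HSPBP1, an HSP70-binding exchange factor whose symbol begins with the same letters as the small heat shock proteins. Other members of these families, such as HSP90AB1, HSPA6 and DNAJB11, were not listed for any of the 4 sets of animals, so they could not be analysed.

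Heat shock proteins hold, fold and refold other proteins. HSPA proteins (HSP70) bind exposed hydrophobic stretches in a cycle driven by ATP: DNAJ proteins deliver the client and trigger hydrolysis, and exchange factors such as HSPH1, HSPA4, HSPA4L and HSPBP1 reset the cycle by releasing ADP. HSP90 proteins act later on clients that include the glucocorticoid receptor, which is kept ready to bind hormone by HSP70 and HSP90, while the small HSPB proteins hold unfolded clients without ATP. In neurons, DNAJ proteins direct HSPA8, the constitutive HSP70, to particular sites: DNAJC5 (cysteine string protein) to synaptic vesicles, DNAJC6 (auxilin) to clathrin coats and DNAJC13 to endosomes.

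Pregnant guinea pigs had received the synthetic glucocorticoid (sGC) betamethasone, named Beta in the sample labels, or saline in late gestation. F1 animals were the offspring of these pregnancies. F2 and F3 animals descended from F1 and F2 males mated with females outside the experiment. Of the animals sequenced, only those of F1 had therefore been exposed as fetuses. Brains were collected at postnatal day 40, and 1 library was made per animal: 4 control and 4 sGC females in each of F1, F2 and F3, and 5 control and 6 sGC F1 males. No strain or genotype was given in the labels, and the study's text described sGC animals of all 4 sets as having shown increased activity in an open field. The labels gave prefrontal cortex as the source, whereas the extraction protocol in the labels named the paraventricular nucleus of the hypothalamus: the paraventricular markers OXT, AVP, CRH and SIM1 summed to at most 19.3 CPM in any library, and OTP and TRH were not listed.

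Libraries held 12819964 to 19551079 counted reads in females and 25697953 to 31763585 in males, of which the 58 genes took between 1.09% and 1.33%. Levels are given as CPM, the read count of a gene scaled to a fixed total per library, after TMM normalisation. CPM is not corrected for transcript length, so it is compared only within a gene, and the 4 tables were counted and deposited separately, so each comparison of sGC with control animals was made within a table. Sets of marker genes showed that libraries stood apart in some groups. In F1 females, the 6 listed markers of striatal projection neurons summed to 298 to 1297 CPM in control and 121 to 294 CPM in sGC animals, and controls 1 and 4 carried the highest sums. All 6 had a negative log2 fold change and 3 of them (PENK, RGS9 and SIX3) passed the test, and the defining markers DRD2, ADORA2A and DRD1 averaged 94.3, 202 and 88.1 CPM in control animals. The 5 listed markers of cortical excitatory neurons had a median log2 fold change of 1.91 in F1 females with none passing the test, and summed to 1737 to 3043 CPM in control and 3035 to 6288 CPM in sGC animals. All 5 microglial markers had a negative log2 fold change in F1 females and 4 of them passed, with sums of 235 to 284 CPM in control and 175 to 197 CPM in sGC animals, and 3 of 7 astrocyte markers passed as lower. All 5 listed markers of mature oligodendrocytes had a negative log2 fold change in F1 females (median -0.73), with none passing. They summed to 4505 to 15307 CPM in control and 3517 to 7139 CPM in sGC animals, with overlap. In F1 males, all 5 listed markers of mature oligodendrocytes passed the test as higher (median 0.99), and their sum was 3371 to 6449.6 CPM in control and 7228 to 12409 CPM in sGC animals. In F3 females the excitatory markers summed to 1954 to 2017 CPM in control and 2442 to 2701 CPM in sGC animals, without overlap. In bulk tissue, fewer cells of a type and less RNA per cell cannot be told apart.

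**Figure D1:**
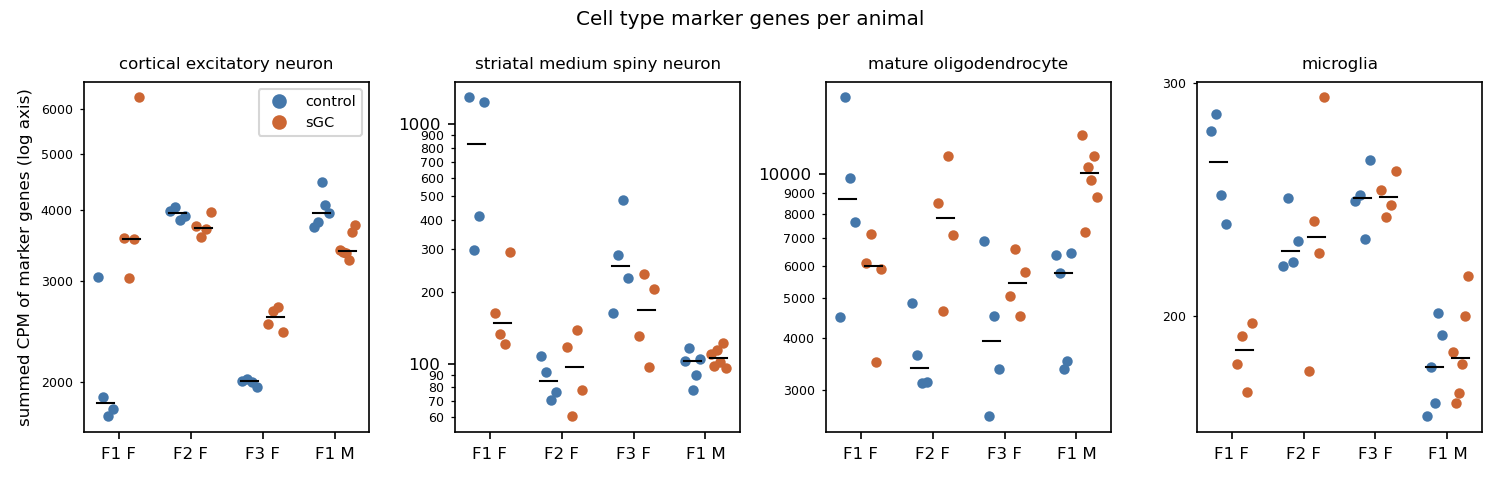
Summed CPM of marker genes (log axis) for 4 cell types in each animal, by generation and sex (F, female; M, male), with control animals in blue, sGC animals in orange and a black line at each group's median. Striatal markers are high in F1 female controls, excitatory markers are higher in sGC than in control F3 females, and oligodendrocyte markers are higher in sGC than in control F1 males.

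Antenatal sGC was followed by changes in 6 of the 56 genes tested in F1 females, where 16.5% of all tested genes passed at a false discovery rate (FDR) below 0.05, 9.21% as higher and 7.33% as lower. The genes that rose were DNAJC6, DNAJC5, HSP90AA1, DNAJC16 and HSPA4L, and the gene that fell was DNAJC3. The changes were between 0.27 and 0.44 upward and -0.29 downward on the log2 scale. HSPB3, with 3 to 18 reads per library, was listed but too low to test, and HSPA1A was not listed. Of the 56 genes, 29 had a positive and 27 a negative log2 fold change, with a median of 0.01 against -0.03 over all tested genes. The values of the sGC and control animals did not overlap for 14 of the 56 (11 higher and 3 lower), or 25.0%, which was close to the 23.2% of all tested genes. An unadjusted p under 0.05 was reached by 24 members (13 higher and 11 lower), and by 34.2% of all tested genes. The number that passed was 3 without control 3 and 12 without sGC animal 2, and between 4 and 8 without any other single animal. These numbers are given without the share of all genes, so they describe the members alone. With upper-quartile normalisation 4 members passed as higher and 2 as lower, and over all genes 803 passed as higher and 1088 as lower, against 1038 and 826 with TMM.

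**Figure D2:**
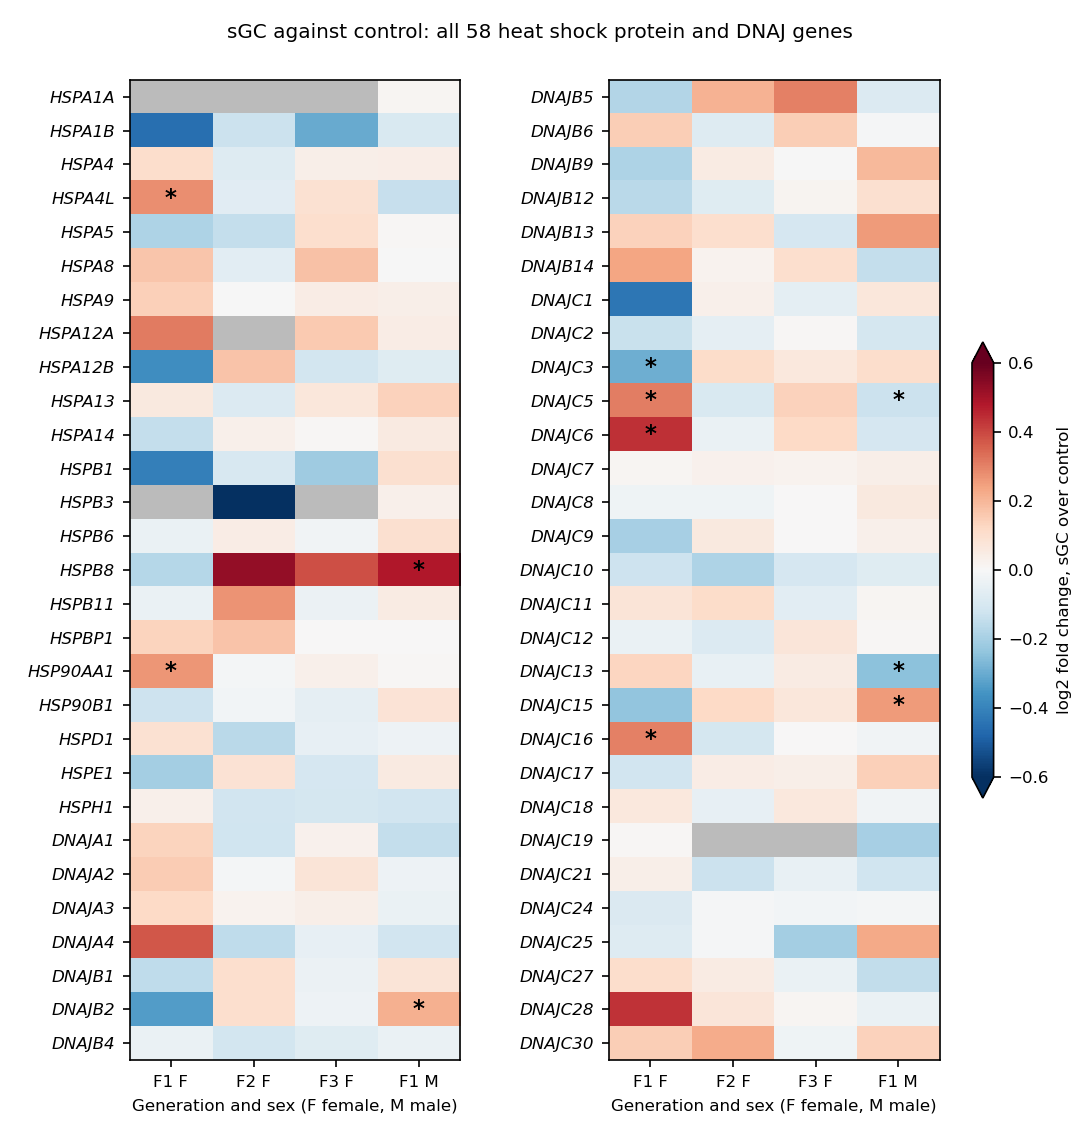
Log2 fold change of sGC over control animals for each of the 58 genes (rows) in each generation and sex (columns), red for higher and blue for lower in sGC animals, with a star where the FDR was below 0.05 and grey where a gene was not listed or not tested. The scale stops at 0.6 in either direction, which HSPB3 in F2 females exceeds (-1.49). Stars appear in the columns of F1 females (6) and F1 males (5) and in neither F2 nor F3 females.

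The 2 members with the smallest FDR in F1 females were a clathrin and a synaptic vesicle chaperone, and both rose. DNAJC6, the brain form of auxilin, brings HSPA8 to clathrin-coated vesicles for uncoating. It was at 400.2, 361, 386 and 404 CPM in the 4 control F1 females and at 507, 566, 510.4 and 521 CPM in the 4 sGC F1 females (log2 fold change 0.44 ± 0.06 (SE), FDR 0.00424). Every sGC animal was above every control animal. DNAJC5, the cysteine string protein of synaptic vesicles that guards SNARE proteins with HSPA8, was at 605, 538, 583 and 603 CPM in control and 692, 758, 729 and 698 CPM in sGC animals (log2 fold change 0.31 ± 0.06 (SE), FDR 0.0123). The groups were again apart, with control 2 the lowest and sGC animal 2 the highest for both genes. HSPA8 itself was at 2784, 2466, 2698 and 2908 CPM in control and 2934, 3041, 3115 and 3082 CPM in sGC animals, which did not overlap but did not pass the test (FDR 0.102). DNAJC13, which works with HSPA8 in endosomal sorting, was at 35.1 ± 0.650 CPM (SD, n = 4) in control and 38.4 ± 1.42 CPM in sGC animals, likewise without overlap or a pass (FDR 0.119). All 4 genes of this set, which was drawn up with earlier results of these data known, had a positive log2 fold change in F1 females. Their median was 0.24, and 2 of them passed.

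The calls for DNAJC6, DNAJC5 and HSP90AA1 held when any 1 of the 8 F1 females was left out (FDR 0.00475 to 0.0222, 0.011 to 0.0449 and 0.0151 to 0.048, respectively). Without controls 1 and 4, the pair with the most striatal marker reads, which was a choice made after seeing the data, 8 members passed instead of 6: DNAJC6, DNAJC5, HSP90AA1, DNAJC16 and HSPA4L with DNAJB2, DNAJA4 and HSPA12A, but without DNAJC3. The share of all genes that passed without these controls is not given beside this count. The excitatory and striatal marker sums moved with treatment in the F1 females, and their part in the differences of these genes was not tested.

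Among the cytosolic chaperones of F1 females, HSP90AA1 and HSPA4L rose, while the heat-inducible HSPA1B and HSPB1 had lower means that did not pass the test. HSP90AA1 encodes the inducible cytosolic HSP90. It was at 2027, 1987, 2034 and 2111 CPM in control and 2471, 2516, 2337 and 2489 CPM in sGC animals (log2 fold change 0.27 ± 0.05 (SE), FDR 0.013), and the gap between the groups was wider than the spread within either. HSPA4L, an exchange factor of the HSP110 type, was at 152, 133, 143 and 153 CPM in control and 178, 156, 191 and 180.1 CPM in sGC animals (log2 fold change 0.28 ± 0.08 (SE), FDR 0.0372). The groups did not overlap, but the call was lost in 6 of the 8 analyses that left out 1 animal (FDR 0.0193 to 0.0947; all but those without control 1 or sGC animal 2) and with upper-quartile normalisation (FDR 0.0576). DNAJA4, a cytosolic class A DNAJ protein, was at 66.5 ± 8.68 CPM in control and 86.1 ± 10.2 CPM in sGC animals (FDR 0.0545, and 0.0361 without control 1 or 0.0368 without sGC animal 2).

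HSPA1B, the heat-inducible HSP70, was at 76.3, 75.3, 70.6 and 68.6 CPM in control and 42.5, 74.8, 43.1 and 52.4 CPM in sGC F1 females (FDR 0.093). Only sGC animal 2 lay within the range of the controls, and without it the call was made (FDR 0.00815). HSPA1A and HSPA1B are nearly identical in sequence, so how reads were divided between them is uncertain. HSPB1, the small heat shock protein HSP27, was at 43.8 ± 4.87 CPM in control and 33.0 ± 6.49 CPM in sGC animals (FDR 0.0724, and 0.018 without sGC animal 3). DNAJB1, the classical HSP40, was at 60.4 ± 2.24 and 54.4 ± 10.8 CPM (FDR 0.424), HSPH1 at 394 ± 34.9 and 401 ± 38.0 CPM (FDR 0.842) and DNAJA1 at 211 ± 13.7 and 232 ± 10.8 CPM (FDR 0.155), in each case with overlapping groups. Of the 10 tested genes of the cytosolic heat-inducible set, 2 passed as higher (HSP90AA1 and HSPA4L) and none as lower, and 5 had a positive and 5 a negative log2 fold change. The set also holds the constitutive HSPA8, which is 1 of the 5 with a positive value.

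In the endoplasmic reticulum (ER), DNAJC3 and DNAJC16 moved in opposite directions in F1 females. DNAJC3, an HSPA5 co-chaperone that also restrains the kinase PERK, was at 58.6, 67.5, 64.0 and 62.3 CPM in control and 45.2, 56.8, 51.0 and 53.1 CPM in sGC animals (log2 fold change -0.29 ± 0.08 (SE), FDR 0.0382). Every sGC animal was below every control animal, although the call was lost in 6 of the 8 analyses without 1 animal (FDR 0.0291 to 0.108; all but those without control 1 or sGC animal 2). DNAJC16, an ER membrane J protein, was at 66.3, 59.5, 63.2 and 64.3 CPM in control and 78.2, 72.1, 85.8 and 76.4 CPM in sGC animals (log2 fold change 0.30 ± 0.07 (SE), FDR 0.0192), again without overlap. It missed the threshold without control 3 or without sGC animal 1 (FDR up to 0.0593). HSPA5 (BiP), the HSP70 of the ER, was at 583 ± 21.0 CPM in control and 513 ± 51.7 CPM in sGC animals (FDR 0.113, and 0.0199 without sGC animal 2, which was the only sGC animal within the control range), and HSP90B1 (GRP94), the HSP90 of the ER, at 624 ± 14.8 and 573 ± 30.6 CPM (FDR 0.139). Of the 12 ER members tested, 8 had a negative log2 fold change, and the median was -0.12 (10 of 12 and -0.20 when scaled by library total alone). DNAJB14, a J protein of the ER membrane, was at 261 ± 20.4 CPM in control and 308 ± 26.0 CPM in sGC animals, without overlap but also without a pass (FDR 0.0687).

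None of the 9 mitochondrial members passed in F1 females. HSPA9 (mortalin), the matrix HSP70, was at 299 ± 20.0 CPM in control and 330.4 ± 10.8 CPM in sGC animals (FDR 0.125), HSPD1 (HSP60) at 225 ± 20.0 and 239.6 ± 9.16 CPM (FDR 0.375) and its partner HSPE1 (HSP10) at 70.2 ± 2.32 and 60.8 ± 6.47 CPM (FDR 0.0979, and 0.0425 without sGC animal 1). Of these genes, HSPA9 and HSPD1 had higher and HSPE1 lower means in sGC animals, and the groups overlapped for all 3. None of the 6 nuclear, ribosomal and splicing DNAJC genes passed either, with a median log2 fold change of -0.07.

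Other members with an unadjusted p under 0.05 in F1 females did not pass the correction. DNAJA2, a cytosolic class A DNAJ protein, was at 196, 187, 193 and 202 CPM in control and 209, 209.9, 223 and 223 CPM in sGC animals, all of them above the controls (FDR 0.0622). DNAJB2, DNAJB12, DNAJC1, HSPA14 and HSPA12B had lower means in sGC animals, and DNAJC28 and HSPA12A higher means (FDR 0.0698 to 0.146). Of these, DNAJB12 and HSPA14 did not overlap between the groups, HSPA14 being a ribosome-associated HSP70, and DNAJB12 passed without sGC animal 2 (FDR 0.0494) as did DNAJC1 (FDR 0.0458). DNAJB2 passed without control 1 (FDR 0.0216). HSPA4 and DNAJB6 were likewise higher in every sGC animal than in any control, with an unadjusted p above 0.05.

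In F1 males, 5 of 58 members passed, against 9.22% of all genes tested (5.74% higher and 3.48% lower): DNAJC15, DNAJB2 and HSPB8 rose, and DNAJC13 and DNAJC5 fell. An unadjusted p under 0.05 was found for 13 members (5 higher and 8 lower) and for 25.2% of all genes, and the groups did not overlap for 5 members (8.62%) and for 6.26% of all genes. DNAJC13 was at 41.5, 40.1, 39.2, 37.7 and 40.7 CPM in the 5 control males and from 32.0 to 35.9 CPM (median 33.3) in the 6 sGC males (log2 fold change -0.25 ± 0.04 (SE), FDR 0.00593). All sGC males were below all control males. DNAJC5 was at 593, 580.4, 598, 559 and 571 CPM in control males and from 497 to 555 CPM (median 534) in sGC males (log2 fold change -0.13 ± 0.04 (SE), FDR 0.048), a small difference without overlap whose call was kept in only 1 of the 11 analyses that left out 1 male, the one without sGC animal 6 (FDR 0.024 to 0.117). DNAJC6 was also lower in every sGC male (517 ± 11.9 against 481 ± 9.49 CPM) but did not pass (FDR 0.0638), and HSPA8 overlapped between the groups (3004 ± 149 against 2995 ± 128 CPM). Without sGC male 6 the number of members that passed was 8, with DNAJA1, DNAJB9 and DNAJC27 joining the 5. This count is given without the share of all genes, so it describes the members alone.

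The genes that rose in F1 males came from 3 families. DNAJB2 is a neuronal DNAJ protein that binds ubiquitylated clients. It was at 126, 125, 127, 124 and 128 CPM in control males and from 133 to 158 CPM (median 146) in sGC males (log2 fold change 0.22 ± 0.04 (SE), FDR 0.0111), with control males within a few CPM of each other and all sGC males above them. DNAJC15, a J protein of the inner mitochondrial membrane, was at 77.6, 77.7, 66.0, 72.3 and 75.6 CPM in control males and from 83.1 to 94.0 CPM (median 88.3) in sGC males (log2 fold change 0.26 ± 0.05 (SE), FDR 0.0106), also without overlap. HSPB8, a small heat shock protein that works with BAG3 to deliver clients to autophagy, was at 20.6, 19.0, 16.1, 15.4 and 22.7 CPM in control males and from 21.1 to 30.1 CPM (median 26.6) in sGC males (log2 fold change 0.48 ± 0.11 (SE), FDR 0.0151), where 1 sGC male (animal 2) lay within the control range. Each of these 3 calls and that of DNAJC13 held when any 1 male was left out. DNAJB9, an ER co-chaperone induced by the unfolded protein response, had a higher mean in sGC males (66.0 ± 1.86 against 75.6 ± 6.69 CPM, FDR 0.0531), and HSPA4L, DNAJA1 and HSPH1 had lower means (FDR 0.0835, 0.0848 and 0.0999), none passing. HSPA1A, listed in males only, was at 3.34 ± 0.253 CPM in control and 3.37 ± 0.163 CPM in sGC males, on 84 to 110 reads per library. The sum of oligodendrocyte markers was 6349, 5758, 3371, 3535 and 6449.6 CPM in control males 1 to 5 and 7228 to 12409 CPM in sGC males. The part of these markers in the rises of HSPB8, DNAJB2 and DNAJC15 was not tested.

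**Figure D3:**
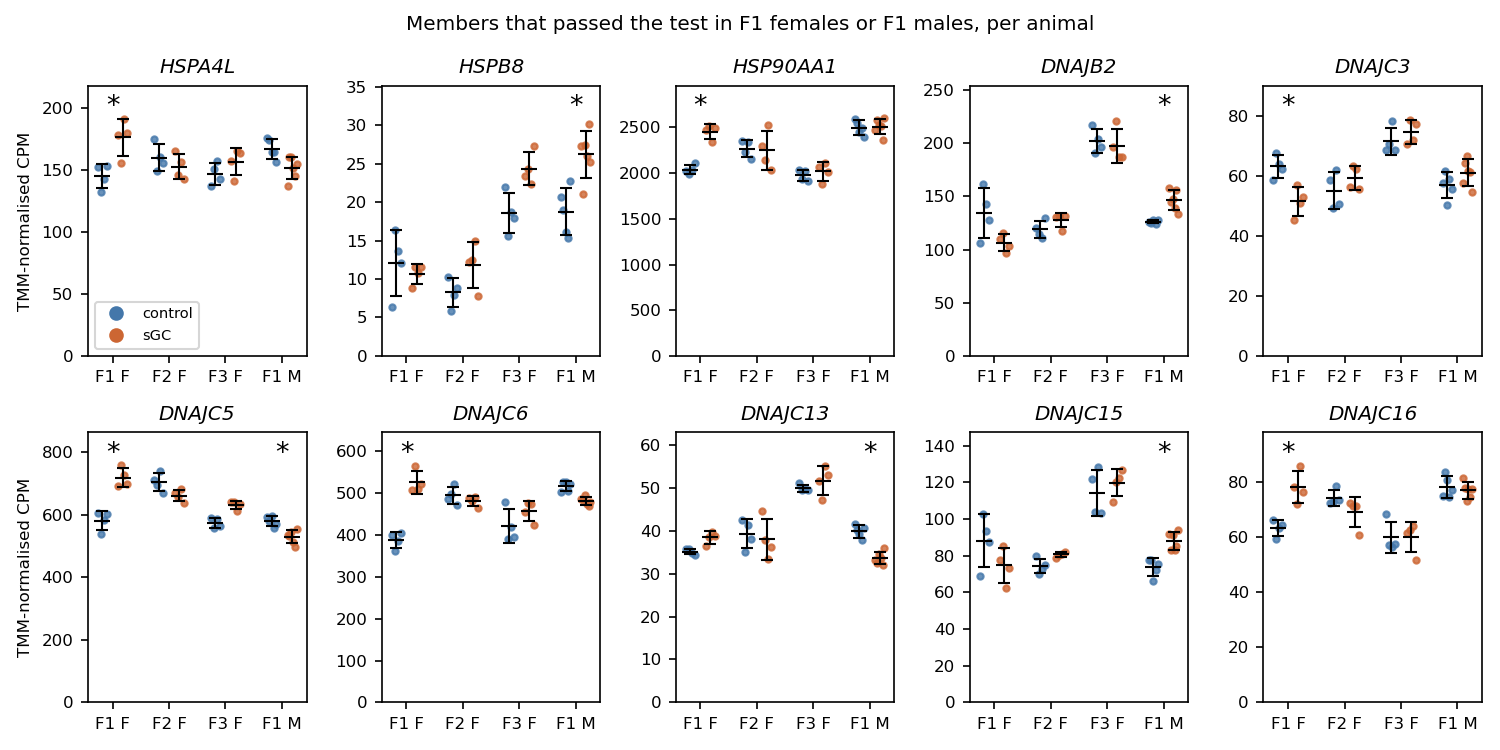
TMM-normalised CPM in each animal (points; control blue, sGC orange) for the 10 genes that passed in F1 females or F1 males, with mean and SD in black and a star above a comparison with an FDR below 0.05. The vertical axes start at 0. DNAJC5 carries 2 stars, with sGC animals above control animals in F1 females and below them in F1 males.

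Whether the response to sGC differed between F1 females and F1 males was tested with an interaction term over the 19 animals. The F1 females and F1 males were in separate tables, so sex cannot be told apart from table in this test. Counted reads were 13908007 to 16951061 in F1 females and 25697953 to 31763585 in F1 males. The excitatory marker sums of control animals averaged 2113 CPM in F1 females and 4011 CPM in F1 males. The part of these differences in the interactions was not tested. Of 57 members tested, 19 (33.3%) passed, against 31.7% of all genes tested, and 24 reached an unadjusted p under 0.05, against 42.2% of all genes. Of the 19, 18 (94.7%) had log2 fold changes of opposite sign in females and males, which is close to the 92.3% of all genes that passed this test, a test that favours genes with opposite signs. HSP90AA1 had a log2 fold change near 0 in males (0.01 ± 0.04), and that of DNAJC16 in males was also within its error (-0.02 ± 0.04). The smallest FDR values were those of 3 of the 4 vesicle chaperones, a set drawn up with earlier results of these data known. The response in males minus that in females was -0.55 ± 0.06 (SE, FDR 1.03e-05) for DNAJC6, -0.44 ± 0.07 (SE, FDR 0.000119) for DNAJC5 and -0.38 ± 0.06 (SE, FDR 0.000294) for DNAJC13, whereas that of HSPA8, the fourth gene of the set, did not pass (-0.18 ± 0.07 (SE, FDR 0.0795)). For HSPA4L it was -0.43 ± 0.09 (SE, FDR 0.00157), from 0.28 in females to -0.14 in males, and for DNAJC16 it was -0.33 ± 0.07 (SE, FDR 0.00264). In the other direction, DNAJB2 had a difference of 0.54 ± 0.12 (SE, FDR 0.00215), from -0.34 ± 0.12 in females (FDR 0.086) to 0.22 in males. DNAJC15 (0.49 ± 0.13 (SE, FDR 0.00941)) and DNAJC3 (0.39 ± 0.10 (SE, FDR 0.00696)) also differed in this direction.

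The other members whose response differed between F1 females and F1 males were DNAJA, ER, small heat shock and mitochondrial genes. DNAJA1, DNAJA2 and DNAJA4, cytosolic class A DNAJ proteins, and the ER gene DNAJB14 had higher log2 fold changes in females (differences of -0.49 to -0.19). The ER genes HSP90B1, DNAJC1, DNAJB9 and DNAJB12 had higher log2 fold changes in males (0.20 to 0.49), as did HSPB1 (0.50) and HSPE1 (0.25). When each of the 19 animals was left out in turn, 14 of the 19 calls were made in every analysis, and those of DNAJA2, DNAJB9, DNAJC1, HSPB1 and HSPE1 were not. Their highest FDR was 0.0634, 0.0713, 0.0661, 0.0749 and 0.106, reached without female control 2 for DNAJA2 and DNAJB9 and without female sGC animal 3, 1 and 2 for DNAJC1, HSPB1 and HSPE1. Under other settings, DNAJA2 missed the threshold with upper-quartile normalisation (FDR 0.0736), and HSPE1 with RLE normalisation (FDR 0.0558) and with the likelihood ratio test (FDR 0.0547).

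**Figure D4:**
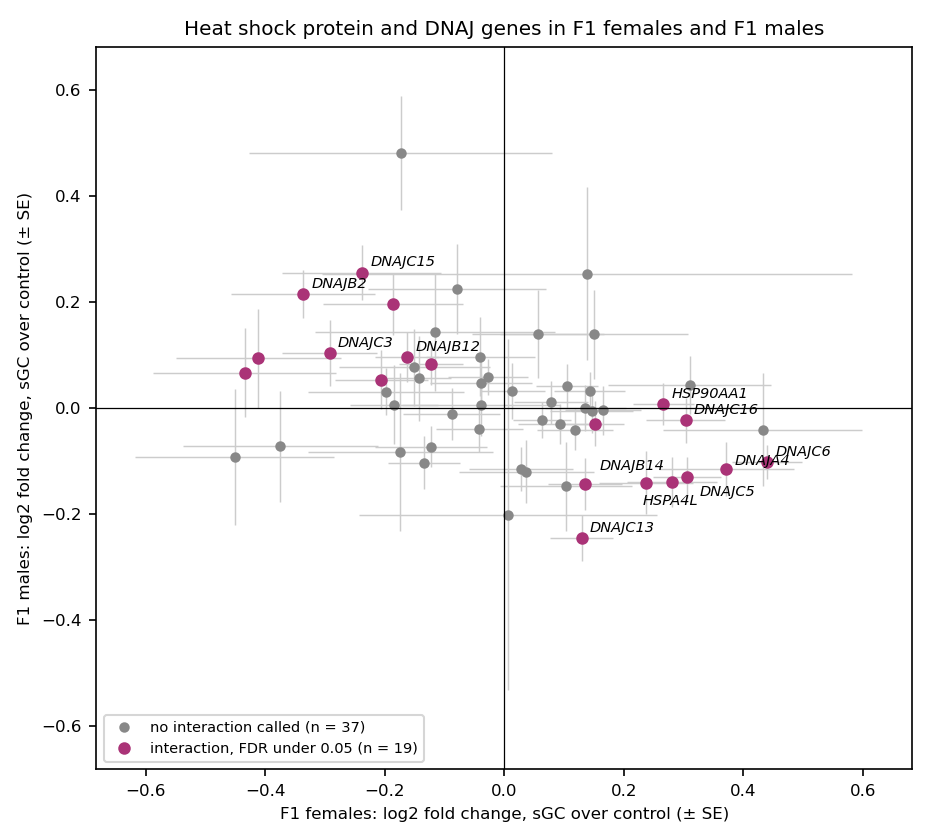
Log2 fold change of sGC over control animals in F1 females (horizontal) and F1 males (vertical) for the 56 genes tested in both, with bars of 1 SE. In purple are the 19 genes whose response differed between F1 females and F1 males (FDR below 0.05), where sex cannot be told apart from table. Purple points lie mainly at the upper left and lower right, where the signs are opposite, as they did for 92.3% of all genes that passed this test.

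In F2 females none of the 55 members tested passed in edgeR's quasi-likelihood test, while 0.278% of all genes did. An unadjusted p under 0.05 was found for 5 members and for 16.1% of all genes, and the same 0 calls were made by DESeq2. The 2 members with the smallest p were DNAJC10 and HSPB3. DNAJC10, an ER reductase that works with HSPA5, was at 99.0, 86.6, 97.3 and 92.0 CPM in control and 81.5, 85.9, 81.6 and 80.6 CPM in sGC F2 females, so that all sGC animals were below all controls (log2 fold change -0.19 ± 0.06 (SE), FDR 0.162). HSPB3, a small heat shock protein known from muscle, was at 2.35, 0.661, 1.41 and 1.36 CPM in control and 0.118, 0.845, 0.555 and 0.603 CPM in sGC animals (log2 fold change -1.49 ± 0.49 (SE), FDR 0.17), but these levels stand on only 2 to 33 reads per library. The groups did not overlap for 3 members, all lower in sGC animals (DNAJC10, DNAJA4 and DNAJC16), or 5.45%, against 8.09% of all genes. HSPB8, with a higher mean in sGC F2 females (8.25 ± 1.90 against 11.9 ± 2.99 CPM, FDR 0.255), and HSPB11 (19.1 ± 2.25 against 23.0 ± 2.21 CPM, FDR 0.241) overlapped. All 5 oligodendrocyte markers had a positive log2 fold change in F2 females (median 1.09) with none passing, and summed to 3129 to 4860.3 CPM in control and 4665 to 11027 CPM in sGC animals, and their part in the values of HSPB8 was not tested. DNAJC5 was at 705 ± 29.9 CPM in control and 662 ± 18.6 CPM in sGC F2 females and DNAJC6 at 494 ± 21.0 and 481 ± 11.9 CPM, with overlap for both.

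The response differed between F1 and F2 females for 9 of 56 members (16.1%, against 13.8% of all genes), and 18 reached an unadjusted p under 0.05, against 30.7% of all genes. DNAJC6 (-0.49 ± 0.08 (SE, FDR 0.00293), F2 minus F1), DNAJC5 (-0.40 ± 0.08 (SE, FDR 0.00616)), DNAJC16 (-0.41 ± 0.10 (SE, FDR 0.0138)) and DNAJA4 (-0.53 ± 0.13 (SE, FDR 0.0189)) had lower log2 fold changes in F2, and these 4 calls were made in all 16 analyses that left out 1 animal. The calls for HSPA4L, HSP90AA1, DNAJC3, DNAJB2 and the little-expressed HSPB3 were not: the count fell to 4 without F1 control 2 or 3, F1 sGC animal 3 or 4 or F2 control 1, and to 5 without F2 control 3 or F2 sGC animal 2 or 4. These interactions and those between the sexes share the 8 F1 females, so they are not independent of each other. The counts with 1 animal left out are given without the share of all genes, so they describe the members alone.

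F3 females also had no member that passed in edgeR's quasi-likelihood test (0 of 55, against 1.34% of all genes), and 5 members had an unadjusted p under 0.05 (17.3% of all genes), all of them higher in sGC animals. DESeq2 called 4 members, all higher. HSPB8 was at 21.9, 15.6, 18.7 and 17.9 CPM in control and 23.4, 24.3, 22.3 and 27.3 CPM in sGC F3 females (log2 fold change 0.39 ± 0.11 (SE), FDR 0.104), and HSPA8 at 2256, 2176, 2329 and 2192 CPM and 2577, 2472, 2460.5 and 2599 CPM (log2 fold change 0.18 ± 0.05 (SE), FDR 0.109). For both genes every sGC animal was above every control animal. Without F3 control 1, HSPB8 passed (FDR 0.0243). DNAJC5 was the third member without overlap, at 589.6, 557, 588 and 565 CPM in control and 640.1, 640.1, 613 and 635 CPM in sGC animals (FDR 0.168), so that 5.45% of members were without overlap, against 10.3% of all genes. DNAJB5 and DNAJB6, the other members with an unadjusted p under 0.05, were at 145 ± 18.1 against 179 ± 14.8 CPM (FDR 0.134) and 171 ± 9.56 against 190.0 ± 9.43 CPM (FDR 0.229), with overlap. The sums of the excitatory markers were also higher in every sGC F3 female, and their part in the values of HSPA8 and DNAJC5 was not tested. No member had an interaction between F1 and F3 females (0 of 56, 8 at an unadjusted p under 0.05, 15.8% of all genes) or between F2 and F3 females (0 of 55, 4 at an unadjusted p under 0.05, 11.5% of all genes), where 0.0981% and 0.018% of all genes passed. DESeq2 called 1 member in each. The shares of all genes given here are those of the quasi-likelihood test, and the DESeq2 shares are not given.

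Side by side, the vesicle set took the same sign for all 4 of its genes within each comparison, except that DNAJC13 changed sign in F3 females when scaled by library total alone. The set was drawn up with earlier results of these data known, so its shared sign is a description and no independent evidence. The median log2 fold change of HSPA8, DNAJC5, DNAJC6 and DNAJC13 was 0.24 in F1 females, -0.05 in F2 females, 0.13 in F3 females and -0.12 in F1 males, with 2 genes passing as higher in F1 females, 2 passing as lower in F1 males and none in F2 or F3 females. The medians over all tested genes lay between -0.03 and 0.01. The excitatory marker sums of sGC animals had a higher mean than those of control animals in F1 and F3 females and a lower mean in F2 females and F1 males, as did the medians of this set, and their part in it was not tested. Among the 54 members tested in all 4 comparisons, the log2 fold changes of F1 females and F1 males had opposite signs for 38 (70.4%), against 65.5% of the 10725 genes tested in all 4.

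Summing the members of a family gave a measure weighted towards its genes with the most reads. In F1 females the summed DNAJC genes were at 2210.0 ± 73.1 CPM in control and 2487 ± 58.6 CPM in sGC animals (12.6% higher), the HSP90 pair at 2664 ± 39.6 CPM in control and 3027 ± 98.4 CPM in sGC animals (13.6% higher) and the DNAJA genes at 549 ± 33.0 CPM in control and 617 ± 19.9 CPM in sGC animals (12.5% higher). The groups did not overlap for any of the 3 sums, which are given as a description without a test. Scaled by library total alone, the rises were 6.33%, 7.31% and 6.30%, and the DNAJA groups then overlapped. Gene by gene, 12 of the 23 DNAJC genes had a positive and 11 a negative log2 fold change in F1 females (median 0.006). HSP90AA1 had a positive value (0.27) and HSP90B1 a negative one (-0.12), and all 4 DNAJA genes had positive values. In F3 females the HSPA sum was at 3902 ± 80.4 CPM in control and 4260.5 ± 105 CPM in sGC animals (9.17% higher, and 5.02% with overlap by library total alone). In F1 males the HSPB sum was at 141 ± 4.70 CPM in control and 154 ± 5.30 CPM in sGC animals (9.45% higher, without overlap under any of the 4 scalings). In F1 females the HSPB sum was at 96.8 ± 3.57 CPM in control and 84.0 ± 7.67 CPM in sGC animals (-13.3%, with overlap). By library total alone that change was -18.1%, without overlap. HSPB11, a ciliary transport protein, is counted in the HSPB sum. The DNAJC sum of F1 males was at 2375 ± 22.2 CPM in control and 2285 ± 53.5 CPM in sGC animals, without overlap under TMM but with overlap by library total alone. In F2 females the groups overlapped for every family under TMM.

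**Figure D5:**
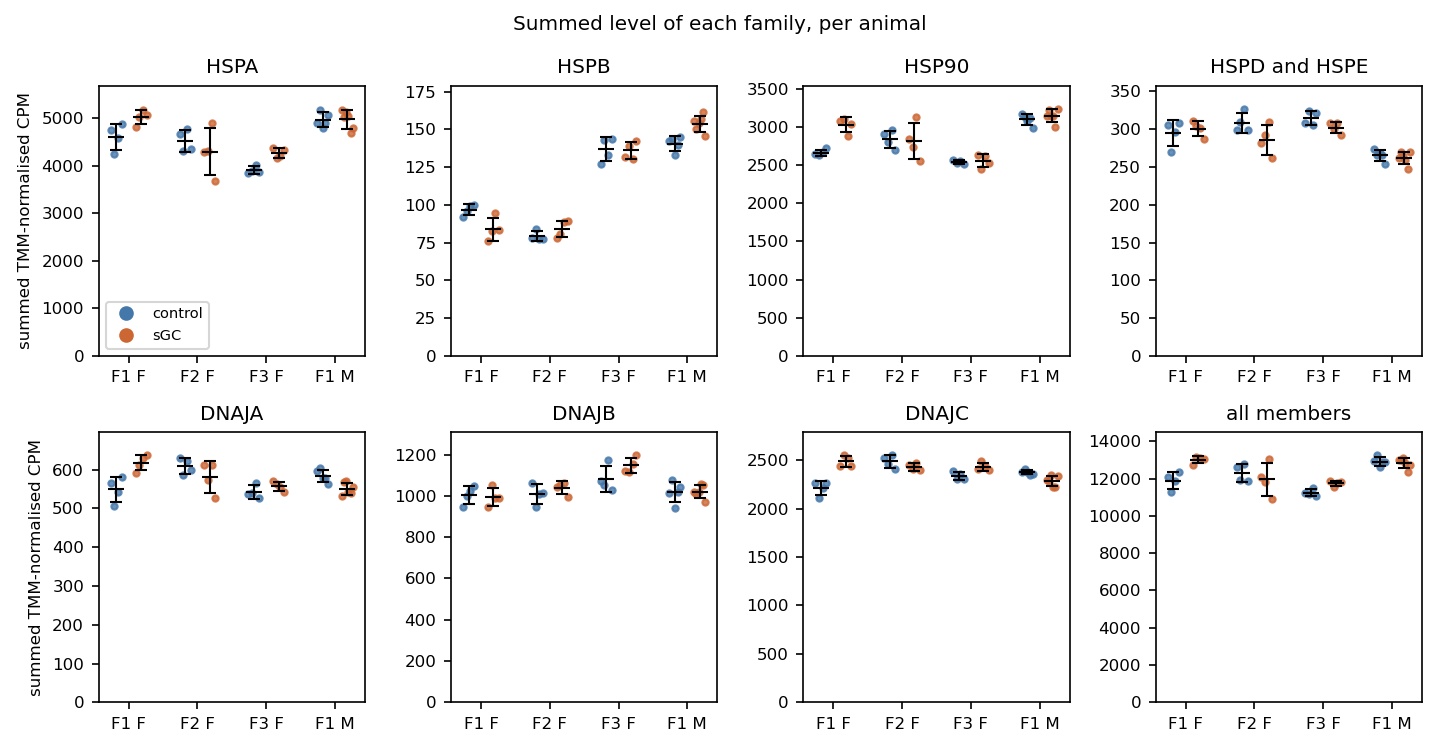
Summed TMM-normalised CPM of each family in each animal (points; control blue, sGC orange), with mean and SD in black and axes starting at 0. In F1 females the sGC animals lie above the control animals for HSP90, DNAJA and DNAJC, whereas in F2 females the groups overlap in every panel.

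The partners of these chaperones were followed through 3 further lists. Of the co-chaperones and heat shock factors, 4 of the 40 tested (10%) passed in F1 females, against the 16.5% of all tested genes. SGTB, a neuronal HSP70 co-chaperone, was at 230.4 ± 20.9 CPM in control and 317 ± 23.8 CPM in sGC animals (log2 fold change 0.46 ± 0.08, FDR 0.00887), and CLPB and GAK also rose, GAK being the auxilin found in most tissues. SIL1, the exchange factor of HSPA5, fell from 32.4 ± 1.62 to 26.7 ± 0.938 CPM (log2 fold change -0.28 ± 0.06, FDR 0.0187). In F1 males 2 of 41 (4.88%) passed, against 9.22% of all genes, both as higher: Cryab (alpha B-crystallin), a small heat shock protein abundant in oligodendrocytes, at 95.8 ± 21.3 CPM in control and 173 ± 27.9 CPM in sGC males (log2 fold change 0.85 ± 0.14, FDR 0.00482), and SERPINH1, a collagen chaperone of the ER (log2 fold change 0.34 ± 0.07, FDR 0.0105). No gene of this list passed in F2 or F3 females, where 0.278% and 1.34% of all genes did. HSF1, the main transcription factor of the heat shock response, did not pass in any comparison (log2 fold changes from -0.14 to 0.06).

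Among genes of the unfolded protein response, the pathway that raises ER chaperones, 5 of 21 (23.8%) passed in F1 females, 1 as higher and 4 as lower, against 9.21% and 7.33% of all tested genes. CRELD2, a secreted ER stress gene, fell from 20.1 ± 1.37 to 13.6 ± 0.715 CPM (log2 fold change -0.56 ± 0.08, FDR 0.00495), SESN2, a stress-induced sestrin, also fell (log2 fold change -0.93 ± 0.21, FDR 0.0232), as did CALR and PDIA6, whereas ASNS rose. SESN2 and ASNS are targets of ATF4, and CALR and PDIA6 encode ER folding factors. In F1 males 2 of 22 (9.09%) passed, close to the 9.22% of all genes, both as higher: PDIA4, a protein disulphide isomerase, at 111 ± 4.83 and 127 ± 5.18 CPM (log2 fold change 0.19 ± 0.04, FDR 0.0127), and EDEM1 (log2 fold change 0.19 ± 0.05, FDR 0.0473). The median log2 fold change of the list was -0.11 in F1 females and 0.09 in F1 males, and no gene of it passed in F2 or F3 females. Of the chaperonin and prefoldin genes, which fold actin and tubulin, 1 of 13 (7.69%) passed in F1 females, CCT2, at 218 ± 5.13 CPM in control and 248 ± 9.45 CPM in sGC animals (log2 fold change 0.19 ± 0.05, FDR 0.0309), and none passed in the other comparisons.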

How the data were processed

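RNA was taken from frozen punches of the right frontal cortex of 35 animals, with 1 library each (TruSeq RNA V2, a kit that does not mark strand, so that reads of overlapping genes cannot be separated). The authors deposited a table of raw read counts per gene symbol for each generation and sex. The submitters' processing notes name TopHat2 and edgeR, and the version of TopHat2 and the genome build were not given in the sources used here. Further columns of the deposited tables hold the authors' own dispersions, log2 fold changes, mean log CPM, likelihood ratios, p-values and FDR, and were not used. Counts were analysed with edgeR 4.0.16 in R 4.3.3 (limma 3.58.1): genes were filtered with filterByExpr (minimum count 10, minimum total 15), scaled by TMM and tested within each table by the quasi-likelihood F test, with Benjamini-Hochberg adjustment over all genes tested and a threshold of 0.05. Interactions were fitted over pairs of tables, using genes listed in both. The study's methods name edgeR's likelihood ratio test, which was run as an alternative, with DESeq2 1.42.0, RLE, upper-quartile and library-total scaling, no filter, the replicate number as a block, a single fit of all tables and each animal left out in turn. The test was run on simulated data in which 200 genes were changed by 1 on the log2 scale, and found 84.0% of them in F1 females and 75.5% in the F1 female and male interaction. It also called 11 and 7 unchanged genes, respectively. The members that passed in a table changed by at most 0.48 in either direction, so these shares do not apply to changes of that size. No animals had counts that agreed within sampling noise. Members and lists were chosen with earlier results of these data known. Text values were given for members that passed in a table or were among the 6 smallest interaction FDR of a pair, for the 2 smallest p of a table without calls, for the most abundant member of each family and for a fixed list of well-known chaperones. Partner genes were named if they were among the 4 smallest FDR of a table. Others were named after their values were seen. Library depths of 12819964 to 31763585 counted reads limit precision for low genes such as HSPB3. The p-values measure the spread between animals, and no litter was given in the labels. The paper states that no litter gave more than 1 animal of each sex in its analysis of females. It does not say so for the males, so shared litters among them cannot be checked. No sequences were matched to these genes here.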

Additional observations from a re-analysis of the deposited data

Results flagged for a closer look

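Single animals stood apart from the rest of their group in 10 of 264 sets of values examined (3.79%, where chance flags about 5%), by the gap to the next animal relative to the range. HSPA5, the ER HSP70, was high in F1 female sGC animal 2, at 590.2 CPM in that animal (others 478 to 494 CPM), and low in F1 male sGC animal 6, at 452 CPM in that animal (others 548 to 605 CPM). DNAJC16 was at 60.8 CPM in F2 sGC female 4 (others 71.3 to 72.3 CPM) and 68.3 CPM in F3 control female 1 (others 56.6 to 57.6 CPM). DNAJB2 was at 118 CPM in F2 sGC female 3 (others 131 to 131 CPM). DNAJC10 was at 83.3 CPM in F1 control male 5 (others 88.4 to 90.4 CPM), HSPD1 at 202 CPM in F1 sGC male 5 (others 220.0 to 227 CPM) and HSPH1 at 325 CPM in F3 sGC female 4 (others 284 to 288 CPM). The summed HSPA genes were at 4022 CPM in F3 control female 3 (others 3852 to 3881 CPM) and the summed HSPB genes at 84.0 CPM in F2 control female 2 (others 77.1 to 77.8 CPM).

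The response to sGC differed between F1 females and F1 males for 19 members by the interaction test, in which sex cannot be told apart from table. The log2 fold change in males minus that in females was negative for DNAJC6 (-0.55), DNAJA4 (-0.49), DNAJC5 (-0.44), HSPA4L (-0.43), DNAJB14 (-0.39), DNAJC13 (-0.38), DNAJC16 (-0.33), DNAJA1 (-0.29), HSP90AA1 (-0.27) and DNAJA2 (-0.19). It was positive for DNAJB2 (0.54), HSPB1 (0.50), DNAJC1 (0.49), DNAJC15 (0.49), DNAJC3 (0.39), DNAJB9 (0.37), DNAJB12 (0.25), HSPE1 (0.25) and HSP90B1 (0.20). Between F1 and F2 females it differed for 9 members, with F2 minus F1 values of -0.53 for DNAJA4, -0.49 for DNAJC6, -0.41 for DNAJC16, -0.40 for DNAJC5, -0.35 for HSPA4L, -0.29 for HSP90AA1, 0.39 for DNAJC3, 0.43 for DNAJB2 and -2.59 for HSPB3, the last resting on 2 to 33 reads per library. The excitatory, striatal and oligodendrocyte marker sums also moved with treatment in F1 females or F1 males, and their part in these interactions was not tested. Without F1 female controls 1 and 4, 25 members differed between the sexes and 12 between F1 and F2 females. These counts are given without the share of all genes, so they describe the members alone.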

How the results depend on the processing

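The number of members that passed in F1 females, 6, became 11 with DESeq2 and 18 in a single fit of all tables. In F2 females it was 0, and 1 (HSPB3) with the likelihood ratio test, where all genes that passed rose from 31 to 534 (473 with DESeq2, 10 in the single fit). In F3 females it was 0, and 1 with the likelihood ratio test and 4 with DESeq2 (all genes 153, 616 and 632). In F1 males it was 5, and 8 with DESeq2. The DESeq2 counts of F1 females and F1 males are given without the share of all genes. DESeq2 also called 1 interaction between F1 and F3 females and 1 between F2 and F3 females, each 0 with the quasi-likelihood test. Omitting F1 female controls 1 and 4 gave 2 for the first (DNAJB2 and HSPB8). These interaction counts too are given without the share of all genes. The cause of the differences between settings was not tested. With each animal left out in turn, the counts ran from 3 to 12 in F1 females, 0 to 0 in F2 females, 0 to 1 in F3 females and 4 to 8 in F1 males, and the interactions from 14 to 20 (F1 females and males) and 4 to 11 (F1 and F2 females). The other count alternatives stayed within 1.5 times. Counts with animals left out are given without the share of all genes, so they describe the members alone. Without the filter or with the block, DNAJC5 in F1 males no longer passed, and with the block the interactions between the sexes of HSP90B1 (FDR 0.067), DNAJA2 (FDR 0.0745) and HSPE1 (FDR 0.137) and those between F1 and F2 females of DNAJB2, HSP90AA1 and HSPB3 did not. DNAJB2 also missed there with RLE normalisation or no filter, and HSP90AA1 with upper-quartile normalisation. When animals were omitted singly, HSP90AA1 had log2 fold changes between -0.0798 and 0.0312 in F2 females and between -0.0079 and 0.0258 in F1 males, and DNAJC16 between -0.0405 and 0.0026 in F1 males, changing sign about 0 in each. With the replicate block HSP90AA1 was at -0.0030 in F1 males, against 0.01 without it.

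Replicate numbers did not pair the animals: same-numbered animals correlated between -0.33 and 0.34 in their deviations from the group means. With the replicate block, 7, 0, 0 and 6 members passed in F1, F2 and F3 females and F1 males, with 18 and 6 interactions for F1 females against F1 males and F2 females and 0 for the other pairs, and over all genes 1080 passed in F1 females (1864 without it, and 3327 in the single fit of all tables). The other counts with the block are given without the share of all genes, so they describe the members alone. Among the limits, 4 animals a group leave small changes undetected, low genes rest on few reads, tables were counted separately, and HSPA1A and HSPA1B may share reads.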

Other observations

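Levels of a few members differed between the separately counted tables. DNAJC9, a histone chaperone linked to cell division, was at 12.3 ± 1.81 CPM in control F1 females and at 42.6 ± 2.35, 47.2 ± 1.50 and 41.0 ± 1.57 CPM in control F2 females, F3 females and F1 males. HSPB11, a ciliary transport protein also named IFT25, was at 22.2 ± 2.44 and 19.1 ± 2.25 CPM in control F1 and F2 females and at 50.5 ± 2.09 and 71.4 ± 4.87 CPM in control F3 females and F1 males. Whether the tables used the same gene models was not tested.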
